A study of Mus musculus with 8 samples.

Results

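DEAD-box and DEAH-box RNA helicases, the genes named Ddx and Dhx, were followed in iBMDM cells, which are mouse macrophages made immortal for culture. Members were all rows of the count table whose gene symbol is Ddx or Dhx followed by a number, leaving out Ddx58 and Dhx58 (the cytosolic RNA sensors RIG-I and LGP2) and pseudogene names. Of 55414 gene identifiers 54 carried such a name. Ddx58 and Dhx58 were left out, and Dhx58os was set aside as an antisense RNA of Dhx58. That left 51 protein-coding members, 36 named Ddx and 15 named Dhx. The rule itself uses names only.

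The 8 libraries formed 4 groups of 2, all of wild-type iBMDM cells. The DSF+LPS group received 5 μM disulfiram (DSF) for 0.5 h, followed by lipopolysaccharide (LPS) at 1 μg/ml for 4 h. The LPS group received the solvent DMSO and then LPS, the DSF group DSF and then water, and the control group DMSO and then water. DSF is a drug against alcohol dependence, and LPS comes from the outer membrane of Gram-negative bacteria and activates TLR4 together with MD-2. The study asked what DSF does to that signalling. The cells are 1 immortalized line. Nothing in the labels says that the 2 libraries of a group came from separate cultures, so the spread behind the p-values may be technical only.

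DEAD-box proteins use ATP to open short stretches of RNA duplex or to clamp onto RNA, and DEAH-box proteins pull on single strands to take RNA and protein complexes apart. Between them they serve nearly every step in the life of an RNA, from ribosome assembly in the nucleolus and splicing to export, translation and decay. In macrophages a few are also known for a part in antiviral sensing, Ddx60 among them.

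The promoters of 3 members that recur in the results are shown here because each holds a match to a motif that was searched. They are the 250 bases upstream of the gene start from RefSeq (GRCm38.p6), written 5′ to 3′ on the strand of the gene. Ddx60 lies on the plus strand at chr8:61927837-61928086, and the capitals mark both matches to GAAANNGAA, an interferon-stimulated response element. Ddx24 lies on the minus strand at chr12:103425848-103426097, and the capitals mark a match to the NF-kB motif GGANNTTCC, found on both strands at the same place. Dhx34 lies on the minus strand at chr7:16221994-16222243, and the capitals mark a match to the ETS core CCGGAAGT.
Ddx60: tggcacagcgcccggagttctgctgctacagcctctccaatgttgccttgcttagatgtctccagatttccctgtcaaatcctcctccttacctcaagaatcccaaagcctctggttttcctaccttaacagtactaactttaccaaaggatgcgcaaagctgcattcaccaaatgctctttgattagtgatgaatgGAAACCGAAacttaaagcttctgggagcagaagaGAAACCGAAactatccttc
Ddx24: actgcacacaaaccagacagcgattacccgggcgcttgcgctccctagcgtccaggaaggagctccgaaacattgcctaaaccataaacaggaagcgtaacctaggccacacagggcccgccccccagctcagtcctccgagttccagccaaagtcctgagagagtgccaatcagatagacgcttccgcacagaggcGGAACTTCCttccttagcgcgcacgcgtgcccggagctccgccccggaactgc
Dhx34: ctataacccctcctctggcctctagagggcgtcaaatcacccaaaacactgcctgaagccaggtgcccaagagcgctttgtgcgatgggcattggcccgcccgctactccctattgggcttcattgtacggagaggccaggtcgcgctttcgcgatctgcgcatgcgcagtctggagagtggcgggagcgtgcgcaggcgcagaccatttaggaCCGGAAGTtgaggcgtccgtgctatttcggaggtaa

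Windows were found for 46 of 51 members, and 8 motifs were searched on both strands, in every window of a gene with several starts (9 members have more than 1, Dhx34 among them). The matches in Ddx60 began 53 and 19 bases before the start, and GAAANNGAA occurred in 7 members (15.2%) against 8.18% of 27025 genes. Those 7 were Ddx17, Ddx27, Ddx49, Ddx51, Ddx60, Dhx30 and Dhx37. GGANNTTCC occurred in 2 members, Ddx24 and Dhx8 (4.35%), against 4.12% of genes. CCGGAAGT occurred in 6 members (13.0%) against 3.23% of genes, and the cyclic AMP response element TGACGTCA in Ddx19a, Ddx49, Ddx51 and Dhx36 (8.70%) against 1.77%. The E-box CACGTG stood in 13.0% of members and 6.86% of genes, and the antioxidant response core TGACNNNGC in 13.0% and 11.5%. The heat shock element, searched as GAANNTTC and TTCNNGAA, stood in 10.9% of members for either form, against 7.73% and 8.11% of genes. A match is a description of the letters and not a site of binding.

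Library totals ran from 17822041 to 21694922 counts. Between 23416 and 25081 genes had a count in the 4 libraries with DSF, against 19779 to 20324 in the 4 without it. A list of 8 macrophage genes summed to between 1958 and 2700 CPM in every library (counts scaled to the library total), and none of 5 lists of markers of other cell types passed 14.2 CPM in any library. At these low levels some of those markers were called higher with DSF alone, namely Flt3 and Xcr1 of dendritic cells, Cd79a of lymphocytes, Camp of neutrophils and Pecam1 of endothelium. In control Flt3 had 0 counts, and all neutrophil markers together had at most 0.174 CPM and all lymphocyte markers at most 0.362 CPM. Flt3, Cd79a and Camp thus passed the filter on low counts only through other groups, and their calls carry little weight. Cd79a and Camp were the only genes tested of lists of 7 and 6. Of the 8 macrophage genes 4 were lower and 2 higher with DSF alone, and 5 lower and 2 higher in DSF+LPS with LPS. Lymphocyte markers summed to 1.26 to 2.93 CPM in DSF+LPS, 0.478 to 0.540 CPM in LPS, 1.36 to 2.12 CPM in DSF, and 0.174 to 0.362 CPM in control. The part of these shifts in the results was not tested. Of the 51 members 49 passed the filter on low counts. Ddx4 passed it only through libraries with DSF, where it was high. Ddx25 and Ddx43, both known from germ cells, had at most 0.191 and 0.0982 CPM in any library and were not tested.

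Levels were divided by exon length, with all annotated exons of a gene merged. By this measure the most abundant members in control were Ddx3x (131 CPM per kb) and Ddx5 (110). Ddx3x helps ribosomes start on structured mRNAs, and Ddx5 acts in splicing and as a transcription coregulator. Ddx39b (89.5), the mRNA export factor UAP56, came next, then the nucleolar Ddx56 (64.3), Ddx39 (61.7), the paralog of Ddx39b, and the nucleolar Ddx21 (58.7). Ddx60 (0.380) and the germ cell gene Ddx4 (0.0289) were the lowest of those tested. The order depends on the length used: by mean CPM alone Dhx9 (407) stood between Ddx5 (633) and Ddx39b (338) in control. Members together took 0.533% and 0.526% of all counts in DSF+LPS, 0.768% and 0.770% in LPS, 0.562% and 0.551% in DSF, and 0.744% and 0.742% in control. The 4 libraries with DSF were all below the 4 without it. In these bulk libraries fewer cells of a kind and less RNA per cell cannot be told apart.

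**Figure D1:**
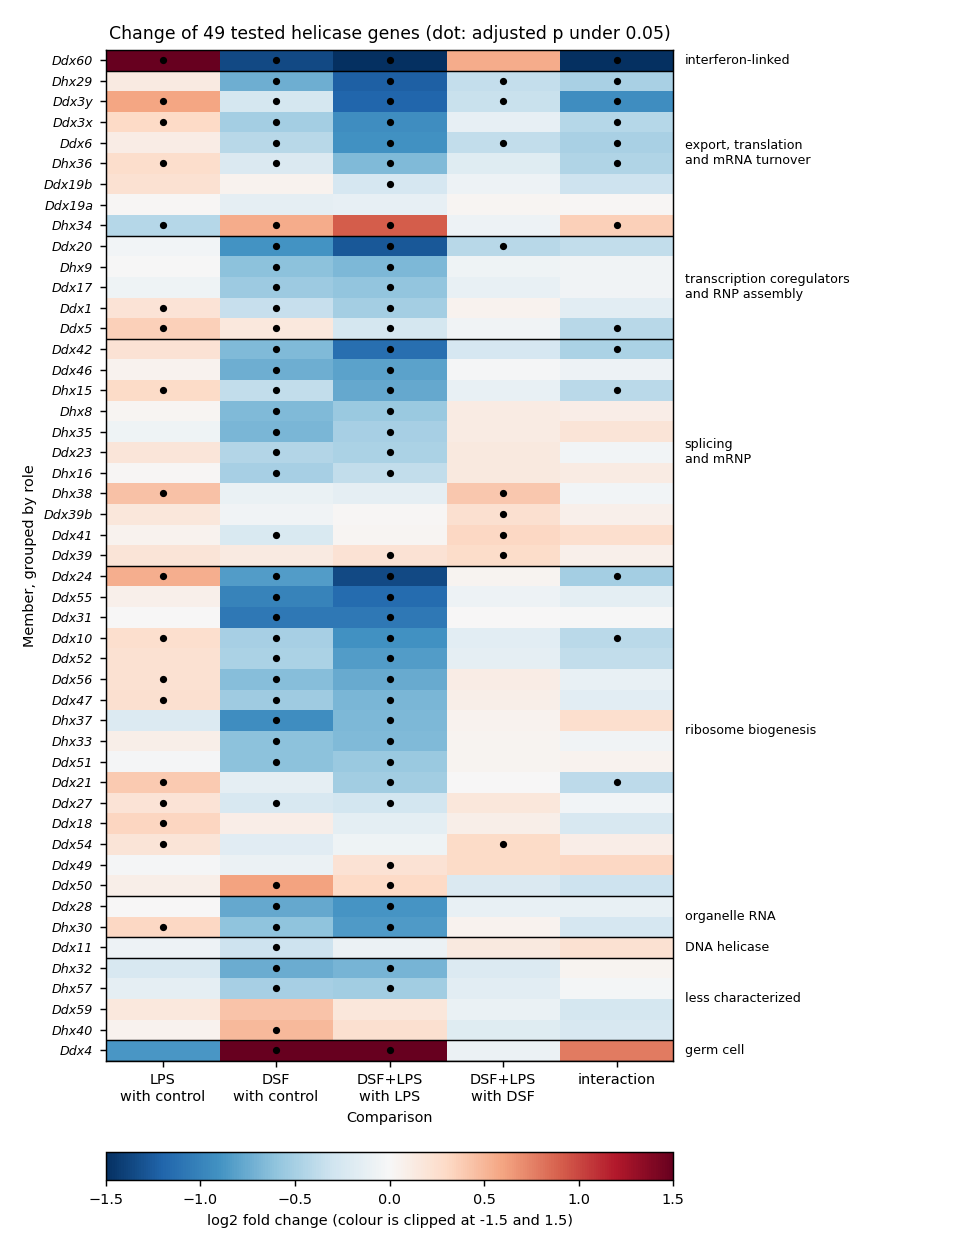
Log2 fold change of the 49 tested members (rows, grouped by role) in 5 comparisons (columns), in blue where lower and red where higher. A dot marks an adjusted p under 0.05. Blue fills most of the columns DSF with control and DSF+LPS with LPS, where 34 and 35 members fell.

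LPS alone raised 17 helicase genes and lowered 1 relative to control. The largest rise was in Ddx60, an interferon-induced gene with a role in antiviral signalling. It was followed by Ddx3y, the copy of Ddx3x on the Y chromosome, Ddx24, a nucleolar protein, and Dhx38, which drives a step of splicing. The member that fell was Dhx34, a factor of nonsense-mediated mRNA decay. Calls were made at an adjusted p under 0.05 in edgeR, and levels are in CPM after scaling by TMM. Of all genes tested, 15.2% were higher and 13.8% lower, so the share of members that rose (34.7%) was above that of all genes and the share that fell was below it. The median log2 fold change was 0.13 over members and 0.02 over all genes.

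Ddx60 had 23.2 and 24.9 CPM in the LPS libraries, against 3.72 and 2.88 CPM in control. The groups were far apart and did not overlap, and the rise was 7.32-fold (log2 fold change 2.87, SE 0.19, adjusted p = 1.53e-08). It was the only member to rise at least 2-fold. Ddx24 had 316 and 300 CPM with LPS, against 216 and 205 CPM in control (log2 fold change 0.55, SE 0.07, adjusted p = 1.47e-05). Ddx3y had 77.4 and 77.5 CPM with LPS, against 49.6 and 53.4 CPM in control (0.59, SE 0.08, adjusted p = 7.66e-05). Both LPS libraries stood above both control libraries for each of these genes.

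**Figure D2:**
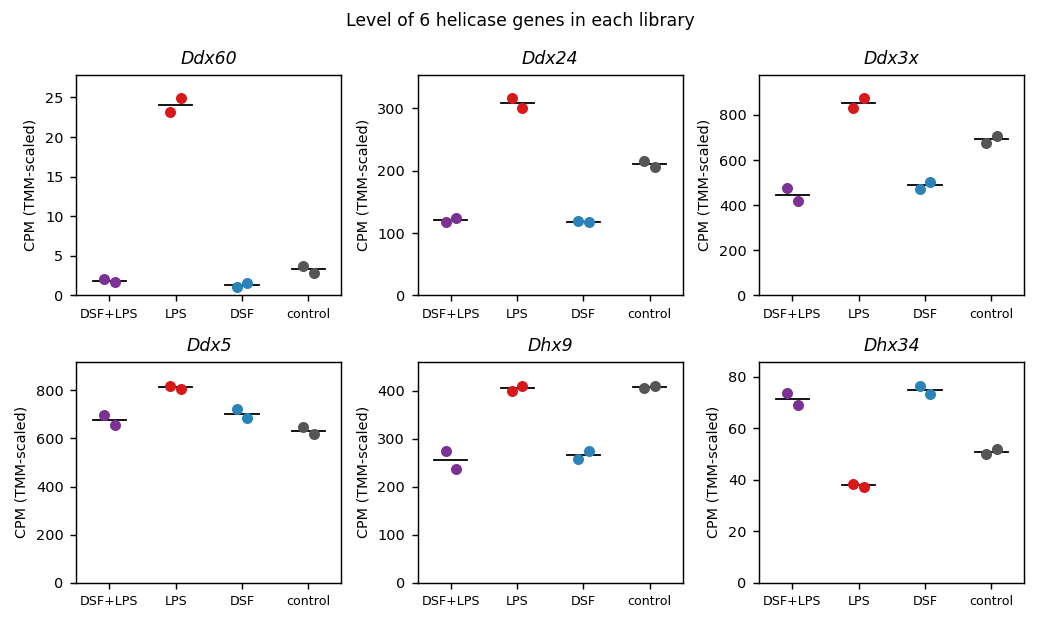
Levels of 6 members in CPM (TMM-scaled, linear axis from 0) in each library, with DSF+LPS, LPS, DSF and control from left to right. Points are the 2 libraries of a group and the bar is their mean. Ddx60 is near 24 CPM in LPS only, Ddx24, Ddx3x and Dhx9 are lower with DSF with or without LPS, and Dhx34 is higher.

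By role, 8 of the 16 ribosome biogenesis helicases rose with LPS and none fell. Ddx21, which acts in the transcription and processing of ribosomal RNA, had 395 and 401 CPM with LPS, against 302 and 305 CPM in control (log2 fold change 0.39, SE 0.06, adjusted p = 0.000249). Ddx18 rose by 0.32 (adjusted p = 0.0106), and the others that rose were Ddx10, Ddx24, Ddx27, Ddx47, Ddx54 and Ddx56. Ribosome biogenesis genes that are not helicases gave 14 higher and 0 lower of 21, among them Rrp9 (0.51) and Nop58 (0.37), which belong to small nucleolar ribonucleoproteins.

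Of 11 members of splicing and mRNP assembly Dhx38 and Dhx15 rose with LPS. Dhx38 had 203 and 194 CPM with LPS, against 148 and 144 CPM in control (log2 fold change 0.44, SE 0.07, adjusted p = 0.000178). Dhx15, which releases the spent spliceosome, rose by 0.29 (adjusted p = 0.00195). Of 8 members of export, translation and turnover Ddx3x, Ddx3y and Dhx36 rose and Dhx34 fell. Ddx3x had 829 and 874 CPM with LPS, against 676 and 708 CPM in control (0.30, SE 0.07, adjusted p = 0.00436). Dhx34 had 38.3 and 37.3 CPM with LPS, against 49.9 and 51.8 CPM in control, without overlap (-0.43, SE 0.08, adjusted p = 0.00110).

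Of 5 transcription coregulators and assembly factors Ddx5 and Ddx1 rose with LPS. Ddx5 had 820 and 808 CPM with LPS, against 649 and 617 CPM in control (log2 fold change 0.36, SE 0.06, adjusted p = 0.000323). Dhx9, which unwinds RNA and RNA-DNA hybrids, had 399 and 411 CPM with LPS and 405 and 409 CPM in control, and its groups overlapped (-0.01, SE 0.07, adjusted p = 0.983). Ddx6, a core protein of P-bodies that represses translation, had 150 and 168 CPM with LPS and 137 and 156 CPM in control (0.12, SE 0.09, adjusted p = 0.408). The mitochondrial Dhx30 rose by 0.31 (adjusted p = 0.00962), while Ddx28 had a value of 0.01.

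Among partner lists none of 8 genes of the SMN complex and none of 5 of the tRNA ligase complex was called with LPS. Of 12 export partners 2 rose (Thoc2 and Poldip3), which is near the 15.2% of all genes. The call of Thoc2 depended on single libraries, with log2 fold changes of 0.20 to 0.35 when 1 was left out. Of 23 G-patch and MIF4G cofactors 6 rose. Of 11 other RNA helicases tested 4 rose with LPS and none fell. Helz2 (log2 fold change 2.61), a coactivator induced by interferon, Znfx1 (1.77), a sensor of viral RNA on mitochondria, Mov10 (0.81) and Ascc3 were the ones that rose. Among P-body and decapping genes the decapping enzyme Dcp2 (0.94), Dcp1a (0.48), the exonuclease Xrn1 (0.44) and Lsm14a rose and Eif4enif1 fell, of 10 tested. Pdcd4, an inhibitor of the helicase Eif4a1, had 2.80 and 3.44 CPM with LPS, against 7.50 and 7.02 CPM in control (-1.21), and Eif4a1 itself rose by 0.41.

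Most of the LPS rises were small, and the count depended on single libraries and on scaling. Without any 1 of the 4 libraries 7 to 9 members were higher, and with scaling by library size alone 6 were higher and 3 lower, which moves the median of all genes by -0.14. Ddx60, Ddx3y, Ddx24, Dhx38, Ddx21 and Ddx5 rose, and Dhx34 fell, under all 10 alternatives. Ddx3x lost its call without control replicate 1 (adjusted p = 0.0603) or LPS replicate 2 (0.0545), Ddx18 without any 1 library (0.0582 to 0.0966), and Dhx30 without either control library or LPS replicate 1 (0.0641 to 0.15). Ddx1, Ddx27, Ddx47, Ddx54 and Dhx36 lost it without any 1 library (up to 0.322), Ddx10 without control replicate 1 or either LPS library (up to 0.337) and Ddx56 without any 1 library other than LPS replicate 2 (up to 0.320). Library size alone ended the call of Dhx15 (0.107) and of the 10 others not called throughout (up to 0.742). Leaving out the filter on low counts ended those of Ddx1, Ddx10, Ddx27, Ddx47, Ddx54, Ddx56 and Dhx36 (0.07 to 0.162), and DESeq2 those of Ddx10, Ddx54 and Dhx36 (up to 0.0601).

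DSF alone lowered 34 helicase genes and raised 5 relative to control. The falls ran through every main role, from the nucleolar Ddx31, Ddx55 and Dhx37 to Ddx20, a subunit of the SMN complex that assembles spliceosomal RNPs, and Dhx29, which helps ribosomes scan structured leaders. Ddx50, Dhx34, Dhx40, Ddx5 and Ddx4 were higher. Of all genes 31.0% were higher and 27.1% lower with DSF, against 10.2% and 69.4% of the members tested. The median log2 fold change was -0.48 over members and 0.05 over all genes, and 9 members had a positive value.

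Of the 16 ribosome biogenesis helicases 11 fell and Ddx50 rose. Ddx31 had 24.9 and 22.4 CPM in the DSF libraries, against 50.5 and 48.8 CPM in control (log2 fold change -1.07, SE 0.09, adjusted p = 2.23e-07). Dhx37, of the small subunit processome, had 72.5 and 71.5 CPM with DSF, against 135 and 139 CPM in control (-0.93, SE 0.08, adjusted p = 1.11e-07). Ddx24 had 119 and 117 CPM with DSF, against 216 and 205 CPM in control (-0.84, SE 0.07, adjusted p = 1.09e-07). Ddx55, of the large subunit, fell by 1.01 on the log2 scale (SE 0.13, adjusted p = 1.35e-05). None of these groups overlapped. Ddx50, the paralog of Ddx21, had 24.0 and 23.8 CPM with DSF, against 15.8 and 15.7 CPM in control (0.60, SE 0.11, adjusted p = 0.000319). Ddx21 had 275 and 280 CPM with DSF and 302 and 305 CPM in control, and did not pass (-0.13, adjusted p = 0.0933).

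Of 11 splicing and mRNP helicases 8 fell with DSF, between -0.73 for Ddx46, of the U2 RNP, and -0.22 for Ddx41. Ddx39, Ddx39b and Dhx38 did not pass, at 0.14, -0.05 and -0.10. In export, translation and turnover 5 of 8 fell and Dhx34 rose. Ddx3x had 471 and 503 CPM with DSF, against 676 and 708 CPM in control (-0.51, SE 0.07, adjusted p = 2.42e-05), and Dhx29 fell by 0.74 on the log2 scale. Ddx6 had 115 and 105 CPM with DSF, against 137 and 156 CPM in control (-0.41, SE 0.10, adjusted p = 0.00187). Dhx34 had 76.6 and 73.3 CPM with DSF, against 49.9 and 51.8 CPM in control, and its groups did not overlap (0.56, SE 0.08, adjusted p = 3.53e-05).

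Ddx20 had 36.7 and 32.8 CPM with DSF, against 65.1 and 64.1 CPM in control (log2 fold change -0.89, SE 0.10, adjusted p = 4.09e-06). Its partners in the SMN complex gave 6 lower and 0 higher of 8, led by Gemin7 (-1.04). Dhx9 had 257 and 274 CPM with DSF, against 405 and 409 CPM in control (-0.61, SE 0.07, adjusted p = 5.84e-06). Ddx17 (-0.54) and Ddx1 (-0.34) fell as well. Ddx5 had 723 and 684 CPM with DSF, against 649 and 617 CPM in control. This was the smallest called rise (0.15, SE 0.06, adjusted p = 0.0441), and it was not called without any 1 of the 4 libraries (adjusted p = 0.0841 to 0.367) or with library size alone (0.496), without the filter on low counts (0.163) or with DESeq2 (0.0576).

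Ddx60 had 1.04 and 1.55 CPM with DSF, against 3.72 and 2.88 CPM in control. It was low in both groups, which did not overlap (log2 fold change -1.35, SE 0.25, adjusted p = 0.000326). Both organelle helicases fell, with log2 fold changes of -0.77 for Ddx28 and -0.60 for Dhx30. Of the less characterized members Dhx32 (-0.74) and Dhx57 (-0.50) fell and Dhx40 (0.49, adjusted p = 0.00221) rose. Ddx4, known as Vasa and typical of germ cells, had 12 and 12 counts with DSF, against 0 and 4 counts in control. It passed the filter on low counts only through libraries with DSF, so its calls with the drug carry little weight. Its few counts gave a ratio of CPM of 6.12, with a 95% counting interval of 2.10 to 24.2. The call (log2 fold change 2.56, adjusted p = 0.0348) was lost without control replicate 1, DSF replicate 1 or DSF replicate 2 (0.0999 to 0.215), and with DESeq2 (0.119).

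Called genes of the partner lists were mostly lower with DSF, where 31.0% of all genes were higher and 27.1% lower. The export partners lay near the share of all genes that fell, and lists of 5 genes are too short to set against it. G-patch and MIF4G cofactors, which switch helicases on or hold them in place, gave 15 lower and 5 higher of 23, with Gpatch1 at -1.04 on the log2 scale. Pdcd4 was among the 5, at 15.9 and 17.6 CPM with DSF, against 7.50 and 7.02 CPM in control. Ribosome biogenesis genes gave 13 lower and 2 higher of 21, with Polr1b, a subunit of RNA polymerase I, at 86.0 and 83.4 CPM with DSF, against 193 and 201 CPM in control. Other RNA helicases gave 7 lower and 0 higher of 11, P-body genes 6 lower and 1 higher of 10, export partners of Ddx39b 4 lower and 0 higher of 12, and the tRNA ligase complex of Ddx1 gave 3 lower and 0 higher of 5. DEAD-box and DEAH-box genes with other names gave 2 lower (Eif4a3 and Ythdc2) and 1 higher of 5. That one was Tdrd9, a germ cell helicase, with 41 and 45 counts with DSF, against 0 and 2 counts in control. Like Ddx4, Tdrd9 passed the filter on low counts only through libraries with DSF, so its calls with the drug carry little weight. The ratio of CPM was 43.8, with a 95% counting interval of 11.8 to 368.

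Of the 34 falls 29 were called under all 10 alternatives. Dhx36 lost the call without either control library or DSF replicate 2 (adjusted p up to 0.176) and with RLE scaling, DESeq2 and the replicate block (0.0521 to 0.0883), and Ddx41 without control replicate 1 or DSF replicate 1 (up to 0.268). Ddx11 (up to 0.0932) and Ddx3y (up to 0.130) lost it without control replicate 2 or DSF replicate 1, and Dhx57 without control replicate 2 or DSF replicate 2 (up to 0.0607). Between 30 and 33 members were lower without any 1 library. The larger number of genes with a count and the lower share of counts in members moved with the drug, and their part in the falls was not tested.

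In LPS-treated cells the drug lowered 35 helicase genes and raised 5, when DSF+LPS was set against LPS. Ddx60 fell most, followed by Ddx24, Ddx20, Dhx29, Ddx3y, Ddx55, Ddx42 and Ddx31, all by at least 2-fold. Dhx34 was again higher, as were Ddx50, Ddx49, Ddx39 and Ddx4. Of all genes 33.7% were higher and 31.6% lower, against 10.2% and 71.4% of members. The median log2 fold change was -0.56 over members and 0.04 over all genes.

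Ddx60 had 2.02 and 1.75 CPM in DSF+LPS, against 23.2 and 24.9 CPM in LPS. The level with both agents was 0.0786 of that with LPS (log2 fold change -3.67, SE 0.20, adjusted p = 1.11e-09). Ddx24 had 118 and 124 CPM in DSF+LPS, against 316 and 300 CPM in LPS (-1.35, SE 0.07, adjusted p = 4.37e-10). Ddx20 had 23.3 and 28.8 CPM in DSF+LPS, against 60.5 and 64.7 CPM in LPS (-1.27, SE 0.11, adjusted p = 9.83e-08). For all of these genes both DSF+LPS libraries were below both LPS libraries.

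Among translation and turnover factors Dhx29 had 30.6 and 29.7 CPM in DSF+LPS, against 71.0 and 70.2 CPM in LPS (log2 fold change -1.23, SE 0.09, adjusted p = 1.33e-08). Ddx3x had 475 and 419 CPM in DSF+LPS, against 829 and 874 CPM in LPS (-0.93, SE 0.07, adjusted p = 3.25e-08). Ddx3y (-1.19) and Ddx6 (-0.90) fell too, as did Dhx36 (-0.67), which resolves G-quadruplexes, and Ddx19b (-0.25), of the nuclear pore. Dhx34 ran the other way, with 73.5 and 69.0 CPM in DSF+LPS, against 38.3 and 37.3 CPM in LPS (0.91, SE 0.08, adjusted p = 2.11e-07). Its groups did not overlap in any of the comparisons of drug with no drug.

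Of the 16 ribosome biogenesis helicases 12 fell and Ddx50 and Ddx49 rose. Ddx21, which had not passed with DSF alone, had 266 and 289 CPM in DSF+LPS, against 395 and 401 CPM in LPS (log2 fold change -0.52, SE 0.06, adjusted p = 5.43e-06). Ddx55 (-1.15) and Ddx31 (-1.07) fell further. In splicing and mRNP assembly 7 of 11 fell, led by Ddx42, of the U2 RNP (-1.13, SE 0.09, adjusted p = 3.01e-08), and Ddx39 rose by 0.21. All 5 coregulators and assembly factors fell. Dhx9 had 274 and 236 CPM in DSF+LPS, against 399 and 411 CPM in LPS (-0.67, SE 0.07, adjusted p = 1.80e-06). Ddx5 had 698 and 655 CPM in DSF+LPS, against 820 and 808 CPM in LPS (-0.27, SE 0.06, adjusted p = 0.00143), while it was called higher with DSF alone.

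Called genes of the partner lists were also mostly lower in LPS-treated cells, where 33.7% of all genes were higher and 31.6% lower. Lists of 5 genes are too short to set against these shares. Other RNA helicases gave 10 lower and 0 higher of 11. Znfx1 had 24.9 and 31.0 CPM in DSF+LPS, against 408 and 370 CPM in LPS (log2 fold change -3.80), and Mov10 (-2.37) and Helz2 (-2.27) fell as well. P-body genes gave 8 lower and 0 higher of 10, with Xrn1 at -1.78 and Dcp2 at -1.22. The SMN complex gave 7 lower and 0 higher of 8, export partners 9 and 0 of 12, G-patch and MIF4G cofactors 16 and 3 of 23, ribosome biogenesis genes 14 and 2 of 21, and the tRNA ligase complex 2 and 1 of 5. DEAD-box and DEAH-box genes with other names gave 4 lower and 1 higher of 5. The higher one was again Tdrd9 (81 counts in all in DSF+LPS, against 5 in LPS), which was tested only through libraries with DSF. Pdcd4 had 16.5 and 12.0 CPM in DSF+LPS, against 2.80 and 3.44 CPM in LPS (2.19).

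Of the 35 falls 33 were called under all 10 alternatives, the exceptions being Ddx19b (adjusted p up to 0.314) and Dhx57 (0.0574), both lost without DSF+LPS replicate 1 and without LPS replicate 1, and Ddx19b also without LPS replicate 2 and with RLE scaling, DESeq2 or a fit of the compared groups alone (0.0535 to 0.116). Of the 5 rises only that of Dhx34 was called throughout. Ddx50 lost the call without either LPS library or DSF+LPS replicate 1 (adjusted p up to 0.226), Ddx49 without LPS replicate 2 or DSF+LPS replicate 2 (up to 0.425), and Ddx39 without LPS replicate 2 or DSF+LPS replicate 1 (up to 0.180). Library size alone ended the calls of Ddx50, Ddx49 and Ddx39 (0.0556 to 0.101), the lack of a filter those of Ddx50 and Ddx49 (up to 0.109), and DESeq2 that of Ddx50 (0.0933). Ddx4 had 15 and 6 counts in DSF+LPS, against 0 and 2 counts in LPS. The ratio of CPM was 11.4, with a 95% counting interval of 2.78 to 99.9, and the call was lost without LPS replicate 1 or DSF+LPS replicate 1 (0.126 and 0.131) and with DESeq2 (0.0558).

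**Figure D3:**
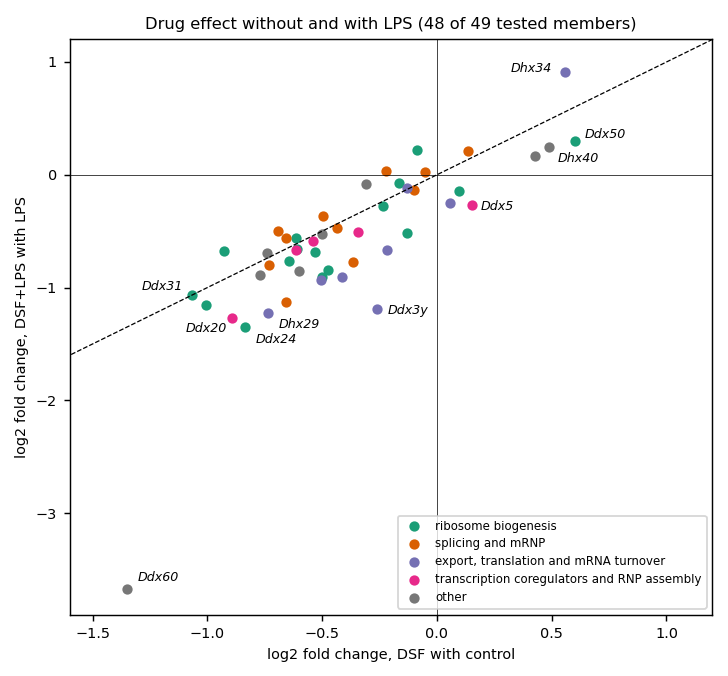
Log2 fold change with DSF in resting cells (x axis, DSF with control) and in LPS-treated cells (y axis, DSF+LPS with LPS) for 48 of the 49 tested members, coloured by role. Ddx4 is off the axes and the dashed line marks equal values. Most points lie in the lower left, with Ddx60 far below the line and Dhx34 at the upper right.

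The drug effect could be compared without and with LPS because those comparisons share no library. Of the 34 members lower in resting cells and the 35 lower in LPS-treated cells, 32 were lower in both, which is 94.1% and 91.4% of each list. Over all genes the shares were 78.3% and 67.1%. These shares start from unlike bases, since 69.4% and 71.4% of members were lower in the 2 comparisons, against 27.1% and 31.6% of all genes. Longer lists overlap more by themselves, so the shares do not show that members kept their falls better than other genes. Ddx4, Ddx50 and Dhx34 were higher in both. Ddx4 was tested only because it was high with DSF, so its place here is no support for a rise. The correlations below include it. Its log2 fold changes, 2.56 and 3.34, were the highest of the members in both comparisons. Pearson's r leans on such an extreme point, and no value without Ddx4 is given. Across the 49 members Pearson's r between the log2 fold changes was 0.89 and Spearman's rho 0.82, where genes are not independent replicates, against 0.84 and 0.78 over all genes. Of the 32 shared falls 29 held under every alternative of both comparisons, the others being Dhx36, Dhx57 and Ddx3y.

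With DSF present, LPS raised 5 helicase genes and lowered 4, when DSF+LPS was set against DSF. Higher were Dhx38, Ddx41, Ddx54, Ddx39 and Ddx39b, and lower were Ddx20, Ddx6, Dhx29 and Ddx3y. Of all genes 5.53% were higher and 6.53% lower, against 10.2% and 8.16% of members, and the median was 0.00 over both. Dhx38 had 174 and 186 CPM in DSF+LPS, against 133 and 139 CPM in DSF, without overlap (log2 fold change 0.40, SE 0.07, adjusted p = 0.00256). Ddx41 (0.31), Ddx54 (0.29), Ddx39 (0.28) and Ddx39b (0.24) rose by less. Ddx20 had 23.3 and 28.8 CPM in DSF+LPS, against 36.7 and 32.8 CPM in DSF (-0.42, SE 0.11, adjusted p = 0.0232). Ddx6 (-0.37), Dhx29 (-0.36) and Ddx3y (-0.34) fell by less.

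Ddx60 had 2.02 and 1.75 CPM in DSF+LPS and 1.04 and 1.55 CPM in DSF, and did not pass (log2 fold change 0.55, SE 0.28, adjusted p = 0.220). Ddx21 (0.00), Ddx3x (-0.13), Ddx5 (-0.06) and Dhx9 (-0.06) did not pass either. Ddx21 was at -0.10 with library size alone. Dhx38 was the only member called under all alternatives. Without DSF replicate 1 the other 8 lost the call (adjusted p = 0.107 to 0.243), leaving 1 higher and 0 lower, and a fit of the compared groups alone did the same. Scaling by library size alone, which moves the median of all genes by -0.11, gave 1 higher and 8 lower. Among partners Helz2 (0.45) rose, Xrn1 (-0.51) and Dcp2 (-0.29) fell, and 3 of 12 export partners, Thoc1, Thoc2 and Thoc7, fell. Ribosome biogenesis genes gave 7 higher and 3 lower of 21, with Fbl, the box C/D methyltransferase, at 0.44. Without DSF replicate 1 the calls of Xrn1, Dcp2, Thoc1, Thoc2, Thoc7 and Fbl were lost (adjusted p = 0.058 to 0.272), while that of Helz2 held without any 1 library (up to 0.0132). G-patch and MIF4G cofactors gave 0 higher and 1 lower of 23, and the SMN complex 0 and 0 of 8. The shares to set beside these partner counts are 5.53% of all genes higher and 6.53% lower.

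The LPS response of 13 members differed with and without the drug, tested as the interaction, which is the log2 fold change of DSF+LPS with DSF minus that of LPS with control. It was lower with the drug for 12 members and higher for Dhx34. Of all genes 7.58% had a higher and 12.2% a lower response, against 2.04% and 24.5% of members. Ddx60 had the largest difference (-2.32, SE 0.34, adjusted p = 0.000205), with a response of 0.55 in DSF-treated cells against 2.87 without the drug. Ddx3y came next (-0.93, SE 0.12, adjusted p = 7.53e-05), at -0.34 against 0.59. Ddx24 followed (-0.51, SE 0.10, adjusted p = 0.00149), at 0.04 against 0.55.

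**Figure D4:**
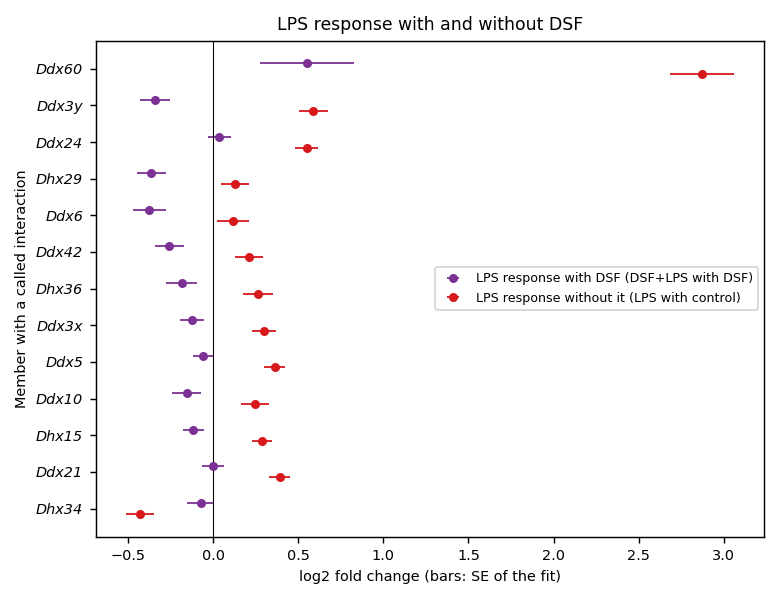
Log2 fold change with LPS, with its SE, for the 13 members with a called interaction. The upper purple point of each row is the response with DSF (DSF+LPS with DSF) and the lower red point that without it (LPS with control). For 12 members the purple point lies left of the red one, and for Dhx34 it lies right of it.

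Of those 13, 6 were among the 8 members of export, translation and turnover. They were Ddx3y, Dhx29 (-0.49), Ddx6 (-0.49), Dhx36 (-0.45), Ddx3x (-0.42, SE 0.10, adjusted p = 0.00711) and Dhx34 (0.35, SE 0.12, adjusted p = 0.0432). In ribosome biogenesis the interaction was called for Ddx24, Ddx10 (-0.40) and Ddx21 (-0.39, SE 0.09, adjusted p = 0.00694), of 16. In splicing it was called for Ddx42 (-0.47) and Dhx15 (-0.40), of 11, and among coregulators for Ddx5 (-0.42, SE 0.09, adjusted p = 0.00303), of 5. Dhx9 did not pass (-0.05, adjusted p = 0.784). The counts in ribosome biogenesis, splicing and coregulators were not far from the 12.2% of all genes with a lower response. Across all 49 members the median difference was -0.12, against -0.02 over all genes.

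Of the 12 lower responses 7 were called under all 13 alternatives, those of Ddx60, Ddx3y, Ddx24, Ddx3x, Ddx5, Dhx15 and Ddx21. Dhx36 lost the call without LPS replicate 2, DSF replicate 1 or either control library (adjusted p up to 0.122), and Ddx6 without LPS replicate 2, DSF replicate 1 or control replicate 1 (up to 0.117). Ddx10 lost it without control replicate 1 or any 1 DSF or LPS library (up to 0.159), with library size alone (0.0551) or without the filter (0.0506), Ddx42 without LPS replicate 2 or control replicate 1 (up to 0.0755), and Dhx29 without control replicate 2 or DSF replicate 1 (up to 0.0648). Dhx34 lost it without any 1 library other than DSF+LPS replicate 2 (up to 0.170), and also without the filter on low counts (0.0664), with DESeq2 (0.0541) and with the replicate block (0.0534). Between 8 and 15 members were lower without any 1 library. Of the partner lists the interaction was lower for Helz2 (-2.16), Znfx1 (-1.98), Mov10 (-0.90) and Ascc3 among other RNA helicases, and for Dcp2 (-1.23), Xrn1 (-0.95), Dcp1a (-0.59) and Lsm14a among P-body genes. It was lower for 7 of 21 ribosome biogenesis genes, 6 of 23 G-patch and MIF4G cofactors and 3 of 12 export partners, against 12.2% of all genes. The response of Eif4a1 (-0.45), the helicase of translation initiation, was lower as well. Leaving out control replicate 2, LPS replicate 2 or DSF replicate 1 ended the call of Eif4a1 (adjusted p = 0.052 to 0.0882), and either of the first 2 ended that of Dcp1a (up to 0.0558). Pdcd4 was the 1 partner with a higher response (0.98, adjusted p = 0.0147), a call that ended when LPS replicate 1 (0.0803) or control replicate 1 (0.0603) was left out. No gene of the SMN complex or the tRNA ligase complex was called in the interaction.

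LPS effects could likewise be compared with and without the drug, since LPS with control and DSF+LPS with DSF share no library. Ddx54 and Dhx38 were higher in both, which is 11.8% of the 17 and 40.0% of the 5 members higher in each, against 19.0% and 52.5% over all genes. With 1 member lower in the first and 4 in the second, none was lower in both. The log2 fold changes had a Pearson's r of 0.38 and a Spearman's rho of 0.08 across the 49 members, against 0.29 and 0.22 over all genes.

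**Figure D5:**
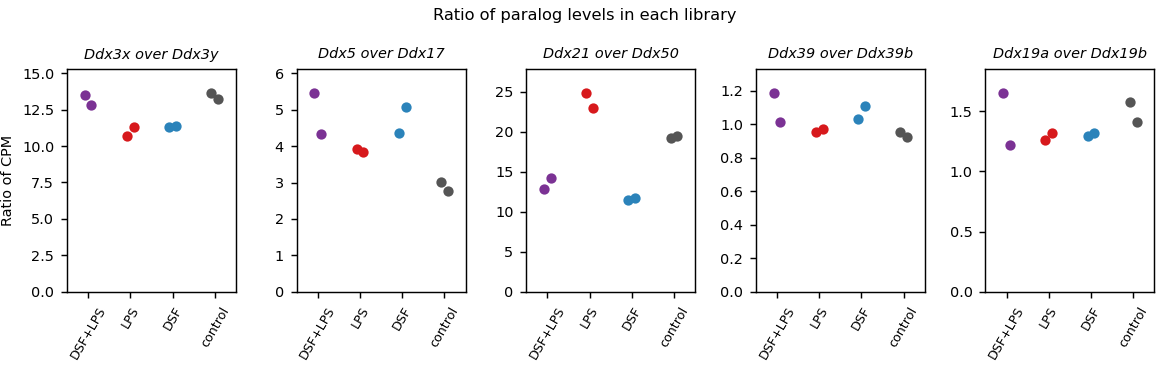
Ratio of the CPM of paralogs in each library (y axis from 0, not corrected for length), for 5 pairs, with DSF+LPS, LPS, DSF and control from left to right. Each point is 1 library. Ddx21 over Ddx50 is lowest in the 4 libraries with DSF, and Ddx5 over Ddx17 is lowest in control.

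The ratio of paralogs differed between groups for some pairs. Ddx21 over Ddx50 was 12.8 and 14.3 in DSF+LPS, 24.8 and 22.9 in LPS, 11.4 and 11.8 in DSF, and 19.2 and 19.4 in control, so the 4 libraries with DSF lay below the 4 without it. Ddx5 over Ddx17 was 5.46 and 4.34 in DSF+LPS, 3.92 and 3.84 in LPS, 4.36 and 5.07 in DSF, and 3.01 and 2.78 in control, lowest in control. Ddx3x over Ddx3y was 13.5 and 12.8 in DSF+LPS, 10.7 and 11.3 in LPS, 11.3 and 11.4 in DSF, and 13.6 and 13.3 in control. Libraries with LPS or DSF alone lay below those with both or neither. Ddx19a over Ddx19b was 1.65 and 1.22 in DSF+LPS, 1.26 and 1.32 in LPS, 1.30 and 1.31 in DSF, and 1.57 and 1.41 in control, with overlap between groups. Ddx39 over Ddx39b lay between 0.925 in a control library and 1.19 in a DSF+LPS library, and LPS overlapped with control. Such ratios are not corrected for length and were not tested, and reads of close paralogs such as Ddx3x and Ddx3y, Ddx39 and Ddx39b, or Ddx19a and Ddx19b may be split wrongly, because the handling of reads with several matches is not given in the sources used here. For 13 members an exon overlaps another gene, on the other strand for 11 of them (Ddx28 and Dhx57 among them), so their reads cannot be told from those of that gene without strand.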

How the data were processed

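Messenger RNA was sequenced from 8 libraries of iBMDM cells, 2 in each of 4 groups, per the labels. The authors deposited raw counts, as whole numbers of reads for each gene, in 1 table of all libraries. The submitters' processing notes name the build GRCm39 and the tool DESeq2, without their role. For the aligner, counter, annotation and strand setting, nothing is given in the sources used here. Symbols, exon lengths and overlaps came from GENCODE M21 (GRCm38), and 52081 of 55414 identifiers matched a symbol.

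All 8 libraries entered 1 fit in edgeR 4.0.16 (R 4.3.3) with the quasi-likelihood test, TMM scaling and a mean per group. The filterByExpr defaults (minimum count 10, minimum total 15) left 16304 genes. P-values were adjusted by Benjamini-Hochberg over all genes of a comparison, and a gene was called, and is said to have risen or fallen, at an adjusted p under 0.05. SE is approximate: the log2 fold change over the root of its F statistic. CPM is scaled by TMM, also in the marker sums. Counting intervals cover counting error only, since PCR copies are not independent molecules.

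Same-numbered libraries of different groups did not deviate together (correlations between -0.12 and 0.05), so numbers were not used as pairs. Replicate counts differed beyond sampling noise in every group. The chi-square per gene was 3.61 in control, 3.96 in LPS, 6.82 in DSF and 12.7 in DSF+LPS. The fit takes 1 spread per gene for all groups, so its p-values make no allowance for the larger differences in the groups with DSF. The members, role and partner lists, motifs and tests were chosen with earlier results of these data known. In every comparison the naming rule takes Ddx60, Ddx21, Ddx3x, Ddx5, Ddx6 and Dhx9, and then the called members with the 8 largest rises and the 8 largest falls whose higher group averages at least 5 CPM, without overlap (5 and 5 for the interaction). It adds up to 3 called genes of each partner list. Other genes named were chosen after their values were seen. The edgeR fit was tested on simulated counts with known changes, whose spread was the same in all groups. Alternatives were RLE and library-size scaling, no filter, DESeq2 1.42.0, a replicate block, a fit to the compared groups alone, and leaving out each library.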

Additional observations from a re-analysis of the deposited data

Results flagged for a closer look

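The LPS response with DSF differed from that without it for 13 members, by the test of the difference itself (log2 units, response with the drug minus response without it). Among translation and turnover factors the differences were -0.93 for Ddx3y, -0.49 for Dhx29, -0.49 for Ddx6, -0.45 for Dhx36 and -0.42 for Ddx3x, and 0.35 for Dhx34. Dhx34 was the only member called with a higher response in the presence of the drug. Its mean was 71.3 CPM in DSF+LPS and 75.0 CPM in DSF, and 37.8 CPM in LPS and 50.9 CPM in control.

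Ddx60 differed by -2.32. In nucleolar helicases the values were -0.51 for Ddx24, -0.40 for Ddx10 and -0.39 for Ddx21. In splicing factors they were -0.47 for Ddx42 and -0.40 for Dhx15, and Ddx5 stood at -0.42. Groups of 2 libraries are too small to look for single outlying samples.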

How the results depend on the processing

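Of 2294 values of single genes under an alternative, 2069 kept direction and call, 213 lost the call, 3 gained it and 9 turned sign. Leaving out single libraries gave 7 to 9 members higher and 1 to 1 lower for LPS with control, 3 to 5 and 30 to 33 with DSF in resting cells, 2 to 5 and 33 to 36 for DSF+LPS with LPS, 1 to 6 and 0 to 3 for DSF+LPS with DSF, and 0 to 2 and 8 to 15 for the interaction. With library size alone 6 were higher and 3 lower for LPS with control, 2 higher for DSF+LPS with LPS, and 1 higher and 8 lower for DSF+LPS with DSF. RLE gave 2 lower for LPS with control. Without a filter 10 were higher for LPS with control, 3 for DSF+LPS with LPS and 0 for the interaction. DESeq2 gave 3 higher for either drug comparison and 0 for the interaction. Fitting only the compared groups gave 3 lower for LPS with control, and 1 higher and 0 lower for DSF+LPS with DSF. The cause of these shifts was not tested. Signs turned for genes near 0: with library size alone Ddx6 was at -0.040 (LPS with control) and Ddx21 at -0.10 (DSF+LPS with DSF). With single libraries left out, Dhx9 ran from -0.029 to 0.011 in LPS with control and from -0.15 to 0.094 in the interaction. In DSF+LPS with DSF, Dhx9 ran from -0.18 to 0.069, Ddx21 from -0.031 to 0.053 and Ddx5 from -0.11 to 0.016.

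The replicate block, where libraries share only a number, gave 18 higher and 1 lower for LPS with control, 5 and 33 for DSF with control, 5 and 35 for DSF+LPS with LPS, 6 and 5 for DSF+LPS with DSF, and 0 and 12 for the interaction. Same-numbered DSF+LPS and DSF libraries correlated at -0.12, and a crossed block, chosen after seeing the data, gave 6 higher and 5 lower. Of the members tested, depth limits Ddx4 most, with 2 counts in the LPS group and 4 in control.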
